A study of Mus musculus with 6 samples.

Results

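Among 42682 liver cells from mice with diet- and toxin-induced steatohepatitis, 131 were γδ T cells that carried a transcript of an NK receptor gene. They were picked cell by cell from raw UMI counts: at least 1 UMI of Cd3d, Cd3e or Cd3g, at least 1 of Trdc, at least 1 of Klra1, Klra7 or Klre1, none of Cd163l1, Il17a, Cd4 or Ncr1, and at most 1 of Cd79a and Ms4a1 together. A UMI is a tag that marks 1 captured RNA molecule. They are called Klr+ γδ T cells here. Their working name was Ly49-positive cytotoxic γδ T cells, and the data went with only part of it. Klra1 (Ly49A) and Klra7 (Ly49G) are Ly49 genes and Klre1 (NKG2I) is not: a Klra1 or Klra7 UMI was present in 49 cells, and 82 cells (62.6%) entered through Klre1 alone. A UMI of Gzmb, which encodes granzyme B, was present in 31 of the 131 cells.

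γδ T cells carry a T cell receptor of a γ and a δ chain, signal through the CD3 complex, and are frequent in liver and other barrier tissues. One well-known branch makes IL-17 under RORγt, and another makes interferon-γ under T-bet and can kill target cells. Ly49 receptors and the NKG2 family are lectin-like surface proteins of mouse NK cells and some T cells that read MHC class I and stress ligands. Inhibitory members damp activation and activating members signal through adaptors such as DAP12 (Tyrobp) and DAP10 (Hcst). The FcRγ chain (Fcer1g) is an adaptor of other receptors and is counted here among other NK-associated genes. STING, encoded by Sting1, senses cyclic dinucleotides made when DNA is found in the cytosol and switches on type I interferon genes.

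The knockout mice were Stingfl/fl Cdh5-Cre+, which lose Sting in cells where the Cdh5 promoter drives Cre, foremost the vascular endothelium. The promoter is also known to be active in the hemogenic endothelium of the embryo, from which blood cells arise. The control mice were Stingfl/fl Cdh5-Cre- littermates, so both groups carried the floxed Sting alleles. All were kept on normal chow until 8 weeks of age and were then given a western diet with CCl4 (WD-CCl4) for 12 weeks, with 3 mice per genotype and 1 library of dissociated liver per mouse. No group without the diet and CCl4 was analysed here.

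The 6 libraries held 55017937 to 73867890 UMIs and 4865 to 9011 kept cells, which had 300 genes or more and no more than 20% mitochondrial UMIs. The labels name the cells as liver sinusoidal endothelial cells, but the suspension was mixed: 8559 cells passed a B cell gate and 2116 an endothelial gate. Pairs of libraries shared 0.0974% to 0.328% of their barcodes, and no barcode of a Klr+ γδ T cell occurred in another library. Sting1 in endothelial cells was at 20.7, 15.2 and 21.4 CPM (counts per 1000000 summed UMIs) in the knockout mice, against 23.5, 26.7 and 25.2 CPM in the control mice (exact two-sided permutation test, p = 0.1, the smallest that 3 mice against 3 allow). In NK cells it was at 9.75, 10.5 and 14.1 CPM in the knockout mice, against 16.3, 19.3 and 21.0 CPM in the control mice (exact p = 0.1). The 3 knockout values lay below the 3 control values in both populations, with ratios of the means of 0.760 in endothelial cells and 0.607 in NK cells. In CD8 T cells the ratio was 1.096 and the groups overlapped (exact p = 0.6). A 3′ tag may lie outside the floxed exons, so these counts may not show the deletion. In Klr+ γδ T cells only 5, 3 and 7 Sting1 UMIs were counted in the knockout mice, against 3, 1 and 2 in the control mice, too few to compare.

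The 131 cells came as 38, 25 and 22 from the knockout mice and as 25, 13 and 8 from the control mice. Their summed UMIs were 339111, 152094 and 158547 in the knockout libraries, against 143801, 74988 and 54972 in the control libraries. A cell had a median of 6186 UMIs and 2225 genes, so the median depth was close to that of the NK gate (6626 UMIs from 1630 cells) and of the CD8 T cell gate (6010 UMIs from 2815 cells). The thresholds are low: 52 cells held exactly 1 UMI of the Klra1, Klra7 and Klre1 sum, 30 held exactly 1 of Trdc and 10 exactly 1 of the Cd3 genes. Only 3 cells sat at 1 UMI for all of these, and 59 held at least 2 of each.

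Free RNA gives UMIs to cells that do not express a gene, and its level was read from cells that should lack these genes. Among 9453 B cells chosen by Cd79a and Ms4a1 alone, at a median of 5251 UMIs, 0.645% held a Trdc UMI, 2.37% a Klra1, Klra7 or Klre1 UMI, and 9.46% a Cd3 UMI. Endothelial cells, at a median of 9092 UMIs, held them in 0.189%, 0.851% and 2.60% of cells. Of the 1376 cells that passed every other term of the rule, 131 held Trdc (9.52%, 95% exact binomial interval 8.02% to 11.2%, counting error only), above the B cell share and above the 4.29% of NK cells (3.36% to 5.39%) with a Trdc UMI. Just outside the thresholds stood 310 γδ T cells with no UMI of the 3 Klr genes, 1245 cells with no Trdc UMI, 43 with no Cd3 UMI and 69 with an Ncr1 UMI.

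Transcripts of other cell types were present in some of these cells. In 11 of the 131 cells, 10 or more UMIs came from 1 marker list of another cell type, and 8 of these 11 were in knockout mouse 1, 1 each in knockout mice 2 and 3, and 1 in control mouse 3. The summed endothelial list of 10 genes ran from 125 to 971 CPM in the knockout mice, against 62.6 to 273 CPM in the control mice, with Stab2 at 0. The summed B cell and plasma cell list of 10 genes ran from 158 to 842 CPM in the knockout mice, against 109 to 181 CPM in the control mice, with Ms4a1 at 0. The lists of platelet and erythroid genes and of mast cell and basophil genes were at 0 in every mouse. One cell supplied 15.3% of the summed UMIs of knockout mouse 1, another 19.3% of knockout mouse 3 and another 24.3% of control mouse 3. Results that moved without these 11 cells are given with and without them. Counts of the Klr genes also rest on how reads of the closely related Klr genes were divided, which adds uncertainty to each Klr gene named.

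The genes of the gate are given as levels only, because the rule used them. Klre1 stood at 203, 342 and 202 CPM in the knockout mice, against 334, 173 and 236 CPM in the control mice, and the groups overlapped. Klra1 stood at 41.3, 32.9 and 75.7 CPM in the knockout mice, against 76.5, 200 and 291 CPM in the control mice. Klra7 stood at 32.4, 46.0 and 94.6 CPM in the knockout mice, against 104, 66.7 and 182 CPM in the control mice. Klra1 was lower in each knockout mouse than in any control mouse, by less than 1 CPM at the nearest pair, and Klra7 overlapped. Levels also did not overlap between genotypes for 495 of 3205 genes tested in these cells (15.4%). In NK cells the median over 6 mice was 4.32 CPM for Klra1, 25.1 CPM for Klra7 and 268 CPM for Klre1, against 76.1, 80.6 and 220 CPM in Klr+ γδ T cells. The NK median was thus of the same order for Klre1 and lower for both Klra genes, which the rule required only of Klr+ γδ T cells.

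The Klr genes were unevenly shared among the 131 cells. Klre1 was found in 110 cells, Klra1 in 31, Klra7 in 29 and both Klra genes in 11. The 49 cells with Klra1 or Klra7 and the 82 with Klre1 alone had nearly the same median depth, 6133 and 6205 UMIs. Fcer1g was detected in 81.6% of the 49 and in 51.2% of the 82, and in 63.3% and 24.7% after each cell was thinned to 2000 UMIs. Tyrobp was detected in 49.0% of the 49 and 19.5% of the 82 (20.4% and 12.3% thinned). Themis, a T cell signalling gene of αβ T cell development, went the other way, with 20.4% of the 49 and 42.7% of the 82 (6.12% and 34.6% thinned). These are shares of cells pooled over 6 mice, the adaptor shares were higher in the 49 and the Themis share in the 82, and no test was made.

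Receptor chain transcripts were counted beside those of the IL-17-type γδ T cells, the 409 cells that passed the same T cell terms with a Cd163l1 or Il17a UMI. Trgc1 was found in 30 of the 131 cells against 304 of the 409, and Trdv4, a δ variable segment, in 5 against 130. Trgc2 was found in 31 of 131 against 87 of 409, and Trgc4 in 38 of 131 against 135 of 409. Trgv6, the segment of the innate IL-17 γδ lineage, was read in 0 of 131 cells, against 28 of 409. Variable segments lie far from the 3′ end that this method reads, and the Trgc1 and Trgc2 constant regions are close in sequence, so these are counts of what was read, pooled over mice and not tested, and they do not give the share of cells that use a segment. Trac, the α chain constant gene, gave a UMI in 26 of the 131 cells (19.8%), against 25.8% of γδ T cells without the 3 Klr genes, 21.0% of IL-17-type cells, 85.2% of CD8 T cells and 1.53% of B cells.

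Compared with NK cells, Klr+ γδ T cells had more transcripts of T cell signalling genes and fewer of most NK receptors and adaptors. NK cells were gated by an Ncr1 UMI and no Cd3 UMI. Of the 1630, 202 held a UMI of Eomes, the transcription factor of conventional NK cells. A cell without an Eomes UMI may still express the gene, so the count does not give the share that lacks it. The gate set no term on Eomes, so Ncr1-positive cells that lack it were not separated from conventional NK cells. Against the 202 cells alone, 373 of the 668 calls given below were still tested and 142 were kept. On UMIs summed per mouse and population, with the mouse as a block (edgeR quasi-likelihood test, Benjamini-Hochberg adjusted p under 0.05), 668 of 8118 genes differed (8.23%): 227 higher (2.80%) and 441 lower (5.43%). Genes of either gate were left out, but genes that travel with them were not, so the calls describe how the gated cells differ. Markers of other cell types were among the lower genes: 4 of 5 tested cholangiocyte markers and 4 of 4 stellate, fibroblast and mesothelial markers. With cells holding 10 or more UMIs of another cell type left out, 1388 NK cells remained. Then 601 of 6293 genes differed, 249 higher and 352 lower. Of the 668 calls, 476 were still tested and 391 were kept.

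Of 19 tested genes of the CD3 complex and T cell signalling list, 11 were higher and 1, Txk, was lower, with a median log2 fold change of 0.97 against -0.07 over all genes. Cd247, the zeta chain of the CD3 complex, had a lowest, median and highest value of 378, 491 and 570 CPM in Klr+ γδ T cells, against 80.6, 90.5 and 111 CPM in NK cells (log2 fold change 2.38, SE 0.16, adjusted p = 6.24e-12). Bcl11b, a transcription factor that holds T cell identity, had 160, 225 and 467 CPM against 41.5, 52.6 and 59.7 CPM (log2 fold change 2.26). For both of these genes no mouse's Klr+ γδ T cells fell as low as any mouse's NK cells. Prkch, a protein kinase C of lymphocytes, Grap2, an adaptor of T cell receptor signalling, and Gramd3 were higher as well, by 1.25, 1.45 and 3.29 on the log2 scale. Fyn (log2 fold change 1.04) and Tcf7 (0.97), a kinase and a transcription factor of T cells, were higher than in all NK cells, but neither passed the test against the 202 NK cells with an Eomes UMI.

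Of 15 tested Klr receptor genes, 11 were lower and none was higher, and of 17 other NK-associated receptors and adaptors 11 were lower and 1, Crtam, was higher. Tyrobp (DAP12) had 72.3, 149 and 195 CPM in Klr+ γδ T cells, against 438, 631 and 825 CPM in NK cells (log2 fold change -2.25, SE 0.17, adjusted p = 8.25e-11). Fcer1g had 178, 354 and 582 CPM against 628, 959 and 1168 CPM (log2 fold change -1.39). Klrb1c (NK1.1) had 64.9, 108 and 181 CPM against 207, 268 and 302 CPM (log2 fold change -1.29). The ranges did not meet for these 3 genes, which was so for 6.0% of the genes tested. Klrb1b, an inhibitory receptor of the same family, was nearly absent, with 0, 9.62 and 19.7 CPM against 260, 278 and 334 CPM. Clnk, an adaptor downstream of NK receptors (log2 fold change -1.75), and Klrk1 (NKG2D, -0.87) were lower too, and both calls were lost against NK cells with an Eomes UMI.

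Of 20 tested cytotoxic granule and effector genes, 5 were lower than in NK cells, where 5.43% of all genes were lower, and none was higher. They were Gzmc, Ctsd, Nkg7, Ctsw and Serpinb6b, and the median log2 fold change of the list was -0.52. Without the 11 cells that held transcripts of another cell type, and with such NK cells left out, 8 of 20 were lower. Gzmb had 20.9, 124 and 237 CPM in Klr+ γδ T cells, against 110, 143 and 306 CPM in NK cells, and did not pass the test (log2 fold change -0.59, SE 0.37, adjusted p = 0.47). Gzmc was at 0 UMIs in all 6 sums of Klr+ γδ T cells, against 31.5, 63.3 and 131 CPM in NK cells. Xcl1, a chemokine that draws dendritic cells, had 362, 1254 and 1787 CPM against 1615, 2474 and 2947 CPM (log2 fold change -1.08). The Xcl1 call was lost without the mouse block and against NK cells with an Eomes UMI, with a log2 fold change as small as -0.29 and an adjusted p of up to 0.30. Ccl5, a chemokine of effector lymphocytes, had 4348, 5332 and 6105 CPM against 2433, 3748 and 5793 CPM (log2 fold change 0.53, adjusted p = 0.025). The Ccl5 call was lost without the mouse block, against NK cells with an Eomes UMI, and without knockout mouse 3, control mouse 1 or control mouse 2, with log2 fold changes of 0.43 to 0.66 and a highest adjusted p of 0.12 over the mice left out in turn.

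Transcription factors and homing genes also separated both populations. Rora, a nuclear receptor of innate lymphoid and type 17 cells, had 200, 384 and 612 CPM in Klr+ γδ T cells, against 749, 1052 and 1112 CPM in NK cells (log2 fold change -1.38). Id2, a factor that innate lymphocytes depend on, had 479, 674 and 855 CPM against 1054, 1251 and 1396 CPM (log2 fold change -0.85). Ikzf2 (Helios) was higher, at 252, 526 and 1006 CPM against 265, 340 and 427 CPM. Tbx21 (T-bet), the factor of interferon-γ programmes, was at 330, 471 and 493 CPM against 440, 468 and 580 CPM and was not called. Of 17 circulation and homing genes, 5 were higher, Klf2, Itga4 and S1pr1 among them, and 3 were lower (Ccr2, Itgb1 and Itgal). The Itga4 call was lost against NK cells with an Eomes UMI, where its log2 fold change was 0.054 (adjusted p = 0.89). None of 28 interferon-stimulated genes and none of 13 STING pathway genes was called, while 8.23% of all genes were.

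Compared with CD8 T cells, the picture was reversed: Klr+ γδ T cells had more NK receptors and adaptors and fewer αβ T cell transcripts. CD8 T cells were gated by the same T cell terms with no Trdc UMI and at least 1 UMI each of Cd8a and Cd8b1. By the same test, 448 of 7976 genes differed (5.62%), 257 higher (3.22%) and 191 lower (2.39%). The lower genes held 5 of 6 tested cholangiocyte markers. With cells holding transcripts of another cell type left out of both populations, 525 of 6971 genes differed, 307 higher and 218 lower. Of the 448 calls, 374 were still tested and 343 were kept.

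Of 6 tested Klr genes 5 were higher, and of 16 other NK-associated genes 9 were higher and none was lower, with medians of 1.36 and 0.79 on the log2 scale against -0.07 over all genes. Klrb1c had 64.9, 108 and 181 CPM in Klr+ γδ T cells, against 1.82, 3.77 and 5.34 CPM in CD8 T cells (log2 fold change 4.95, SE 0.37, adjusted p = 1.28e-12). Tyrobp had 72.3, 149 and 195 CPM against 2.95, 12.9 and 64.4 CPM (log2 fold change 3.08), and Fcer1g had 178, 354 and 582 CPM against 1.47, 11.1 and 41.6 CPM (log2 fold change 4.79, adjusted p = 0.0021). The ranges did not meet for any of the 3, which was so for 3.72% of the genes tested. Without the mouse block the adjusted p of Tyrobp was 0.058. Klrd1 (CD94), the partner of NKG2 receptors, was higher by 1.43 and Klrc2 (NKG2C) by 2.11 on the log2 scale. Klrk1 (NKG2D) was higher by 1.18 (adjusted p = 0.019), a call lost without control mouse 3 (adjusted p = 0.14). The receptors Il12rb2 and Il2rb, for interleukin 12 and for interleukins 2 and 15, were higher by 1.58 and 0.83.

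Ikzf2 was among the clearest differences from CD8 T cells, at 252, 526 and 1006 CPM in Klr+ γδ T cells, against 53.3, 72.0 and 125 CPM in CD8 T cells (log2 fold change 2.73, SE 0.17, adjusted p = 5.89e-14). Zbtb16 (PLZF), a factor of innate-like T cells, had 46.0, 102 and 146 CPM against 6.27, 19.9 and 33.4 CPM (log2 fold change 2.41). Spry2, a feedback inhibitor of receptor tyrosine kinase signalling, Myo1e, an unconventional myosin, and Bcl2l11 (BIM), which promotes apoptosis, were higher by 3.26, 2.98 and 1.74. Xcl1 was higher, at 362, 1254 and 1787 CPM against 149, 277 and 389 CPM (log2 fold change 2.07), and Tnfsf10 (TRAIL), a death ligand, was higher by 1.25. Rora was lower (log2 fold change -0.85).

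The αβ chain genes Trac, Trbc1 and Trbc2 were all lower. Trac had 13.3, 32.8 and 111.8 CPM in Klr+ γδ T cells, against 360, 411 and 482 CPM in CD8 T cells (log2 fold change -2.94). Of 20 T cell signalling genes, 8 were lower, among them Bcl11b (log2 fold change -1.19) and the surface receptors Cd5 (-1.15) and Cd28 (-1.06), and 1, the kinase Txk, was higher (1.29). The Cd5 call was lost with gate thresholds of 2 UMIs (adjusted p = 0.14). Of 21 cytotoxic genes, Tnfsf10 was higher and Gzmk and Nkg7 were lower. Gzmk, the granzyme of a large CD8 subset, had 0, 0 and 52.6 CPM against 59.9, 117 and 201 CPM (log2 fold change -3.63). Nkg7, a granule membrane protein, was lower (log2 fold change -0.63), a call lost without the mouse block and with gate thresholds of 2 UMIs (adjusted p of up to 0.23), and Gzmb was not called (log2 fold change -0.57, SE 0.34, adjusted p = 0.49). Of 29 cell cycle genes 5 were lower, with Hmgb2 at -0.81, and without the cells that held other types' transcripts 12 of 22 were lower. Ctla4, an inhibitory checkpoint, was lower (log2 fold change -1.94).

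Of 41 dissociation and immediate early genes, which respond to handling as well as to activation, 11 were higher in Klr+ γδ T cells than in CD8 T cells and none was lower. Socs3 was higher by 1.22 and Nfkbiz by 0.70 on the log2 scale, and both calls were lost with gate thresholds of 2 UMIs and when a Klra1 or Klra7 UMI was required. Against NK cells 3 of 41 were higher and 5 lower. Whether handling had a part in these differences was not tested.

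**Figure D1:**
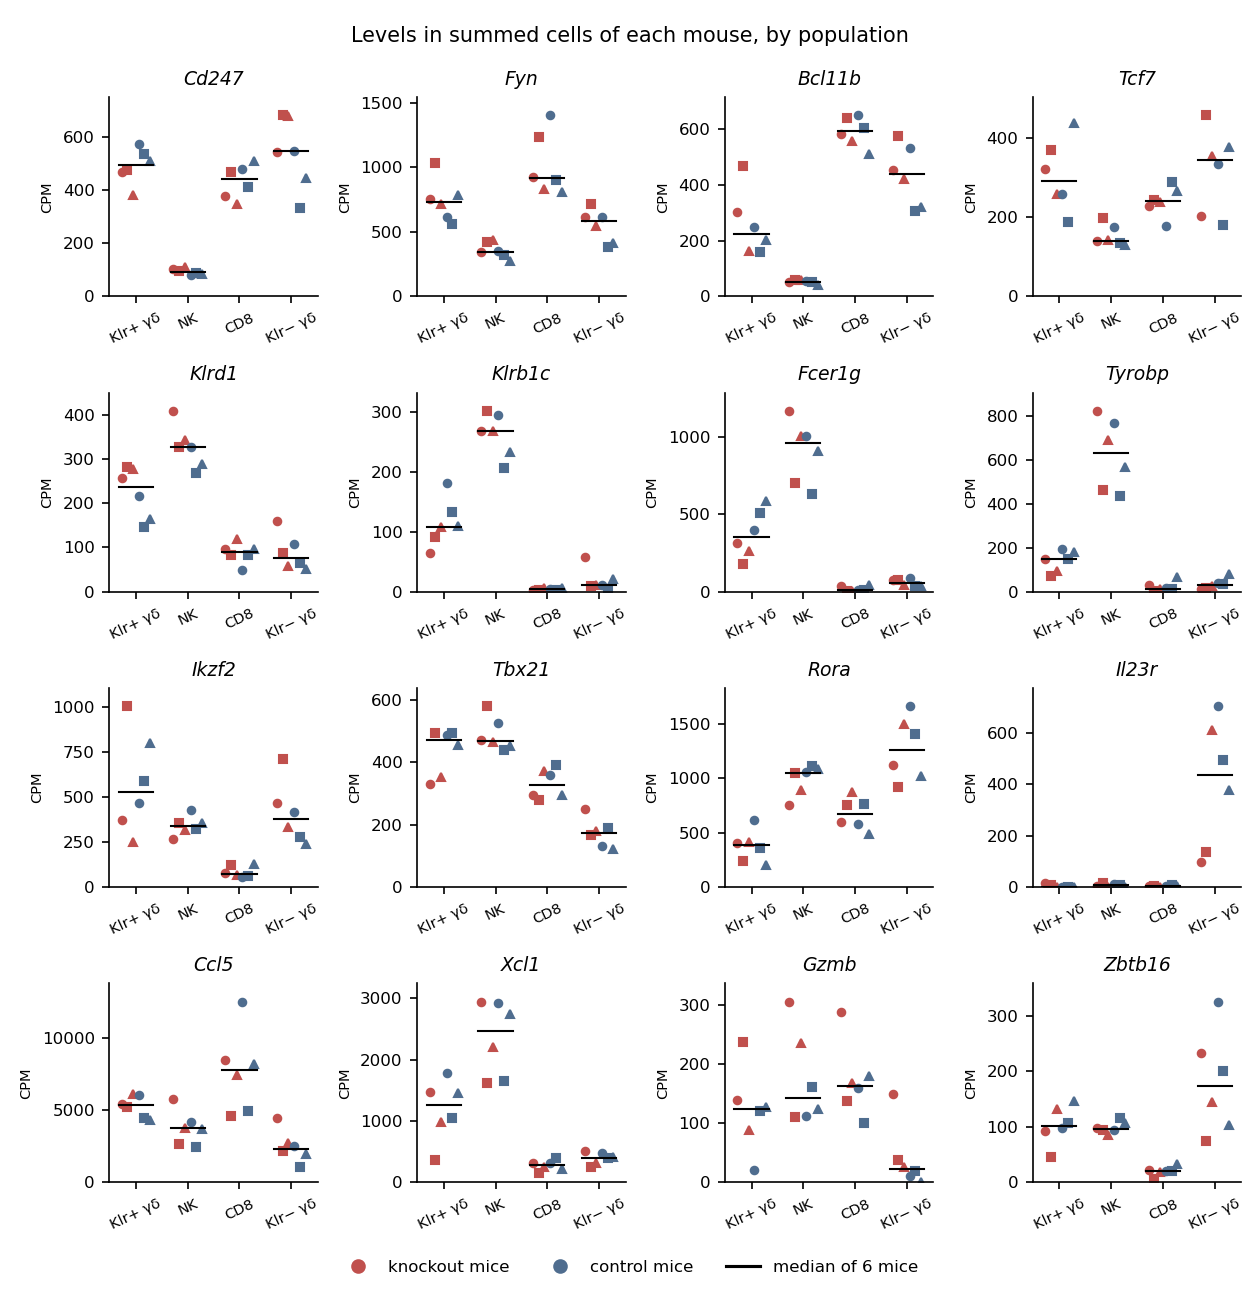
Levels of 16 genes in CPM of summed UMIs (y axes, linear, from 0) in Klr+ γδ T cells, NK cells, CD8 T cells and γδ T cells without the 3 Klr genes; circles, squares and triangles are mice 1, 2 and 3 of each genotype (red knockout, blue control) and the line is the median of the 6 mice. Cd247 lies near CD8 T cells, Fcer1g and Tyrobp lie between NK cells and CD8 T cells, and Il23r lies near 0 in Klr+ γδ T cells, NK cells and CD8 T cells.

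Against their nearest neighbours, the γδ T cells without Klra1, Klra7 or Klre1 (310 cells, median 5603 UMIs), Klr+ γδ T cells held more of the Klr and other NK-associated genes and fewer of the type 17 genes. By the same test 137 of 4086 genes differed (3.35%), 58 higher (1.42%) and 79 lower (1.93%). Without control mouse 1 the count was 49, with 15 higher and 34 lower.

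Of 5 tested Klr genes not named in the rule all 5 were higher: Klrd1, Klrb1c, Klrc1, Klrc2 and Klrk1. The populations were split by UMIs of related Klr genes, so genes that travel with those were not chosen independently. These calls describe how the gated cells differ. Of 12 other NK-associated genes 6 were higher, and of 9 cytokine genes 4 were higher (Xcl1, Ccl5, Spry2 and Ccl3). Fcer1g had 178, 354 and 582 CPM in Klr+ γδ T cells, against 34.3, 56.1 and 88.5 CPM in those without the Klr genes (log2 fold change 2.55, SE 0.29, adjusted p = 7.87e-05). Tyrobp had 72.3, 149 and 195 CPM against 13.6, 28.3 and 81.5 CPM (log2 fold change 2.16), and Klrd1 147, 236 and 283 CPM against 51.5, 75.0 and 160 CPM (log2 fold change 1.37). Klrd1 and Tyrobp overlapped between the populations at 1 end of the range and Fcer1g did not. Tbx21 had 330, 471 and 493 CPM against 120, 173 and 249 CPM (log2 fold change 1.31), with no overlap, which was so for 2.1% of the genes tested, and Il12rb2, whose ligand induces interferon-γ, was higher by 1.75. Ccl5 was higher by 1.18, Xcl1 by 1.48 and the granule gene Nkg7 by 1.03. Klrb1c was higher by 2.68 (adjusted p = 0.0075), with an adjusted p of 0.055 without control mouse 1.

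Gzmb had 20.9, 124 and 237 CPM, against 0, 22.8 and 150 CPM in γδ T cells without the Klr genes, and was not called (log2 fold change 1.73, SE 0.49, adjusted p = 0.09). It was called without the cells that held transcripts of another cell type (log2 fold change 1.80, adjusted p = 0.0066). Of 15 cytotoxic genes Nkg7 and Ctsw were higher and none was lower; without those cells it was 4 of 11.

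Of 12 tested type 17 genes 10 were lower and none was higher, with a median log2 fold change of -2.61. The rule required Il17a and Cd163l1 at 0 in both populations, so neither is counted here. Type 17 cells in which no UMI of these genes was read can still be in either population. Il1r1, another gene of the list, was at 393 CPM in γδ T cells without the Klr genes pooled over mice, against 45.5 CPM in Klr+ γδ T cells. The Klr+ γδ T cells were not alike in it. Pooled over mice, Il1r1 was at 103 CPM in the 52 with exactly 1 UMI of the 3 Klr genes. It was at 1.91 CPM in the 79 with 2 or more. How far type 17 cells account for the differences was not tested. Il23r, the receptor for the cytokine that maintains IL-17 producers, had 0, 0 and 14.7 CPM in Klr+ γδ T cells, against 95.5, 435 and 705 CPM (log2 fold change -5.53, SE 0.58, adjusted p = 0.00023). Rora had 200, 384 and 612 CPM against 915, 1262 and 1663 CPM (log2 fold change -1.80, adjusted p = 4.17e-06). S100a4, a calcium-binding protein of effector cells, Tmem176b, a membrane protein of RORγt-expressing cells, and the interleukin 7 receptor Il7r were lower too, with log2 fold changes of -1.99, -2.33 and -1.33. The Il7r call was lost when a Klra1 or Klra7 UMI was required (adjusted p = 0.063). Maf, a factor of IL-17 γδ T cells, was lower (log2 fold change -2.58, adjusted p = 0.0052), a call lost without control mouse 1 (adjusted p = 0.0502). Cd44, an activation and memory receptor, was lower (log2 fold change -0.76, adjusted p = 0.0083), with 0.055 without that mouse, and the call was also lost with gate thresholds of 2 UMIs and when a Klra1 or Klra7 UMI was required.

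Of 18 tested T cell signalling genes, Bcl11b and Lat were lower than in γδ T cells without the Klr genes, where 1.93% of all genes were lower, and none was higher, with a median log2 fold change of -0.09, against -0.0034 over all genes. None of 9 interferon-stimulated genes and none of 6 STING pathway genes was called, where 3.35% of all genes were. In lists this short, 0 calls is close to that share.

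**Figure D2:**
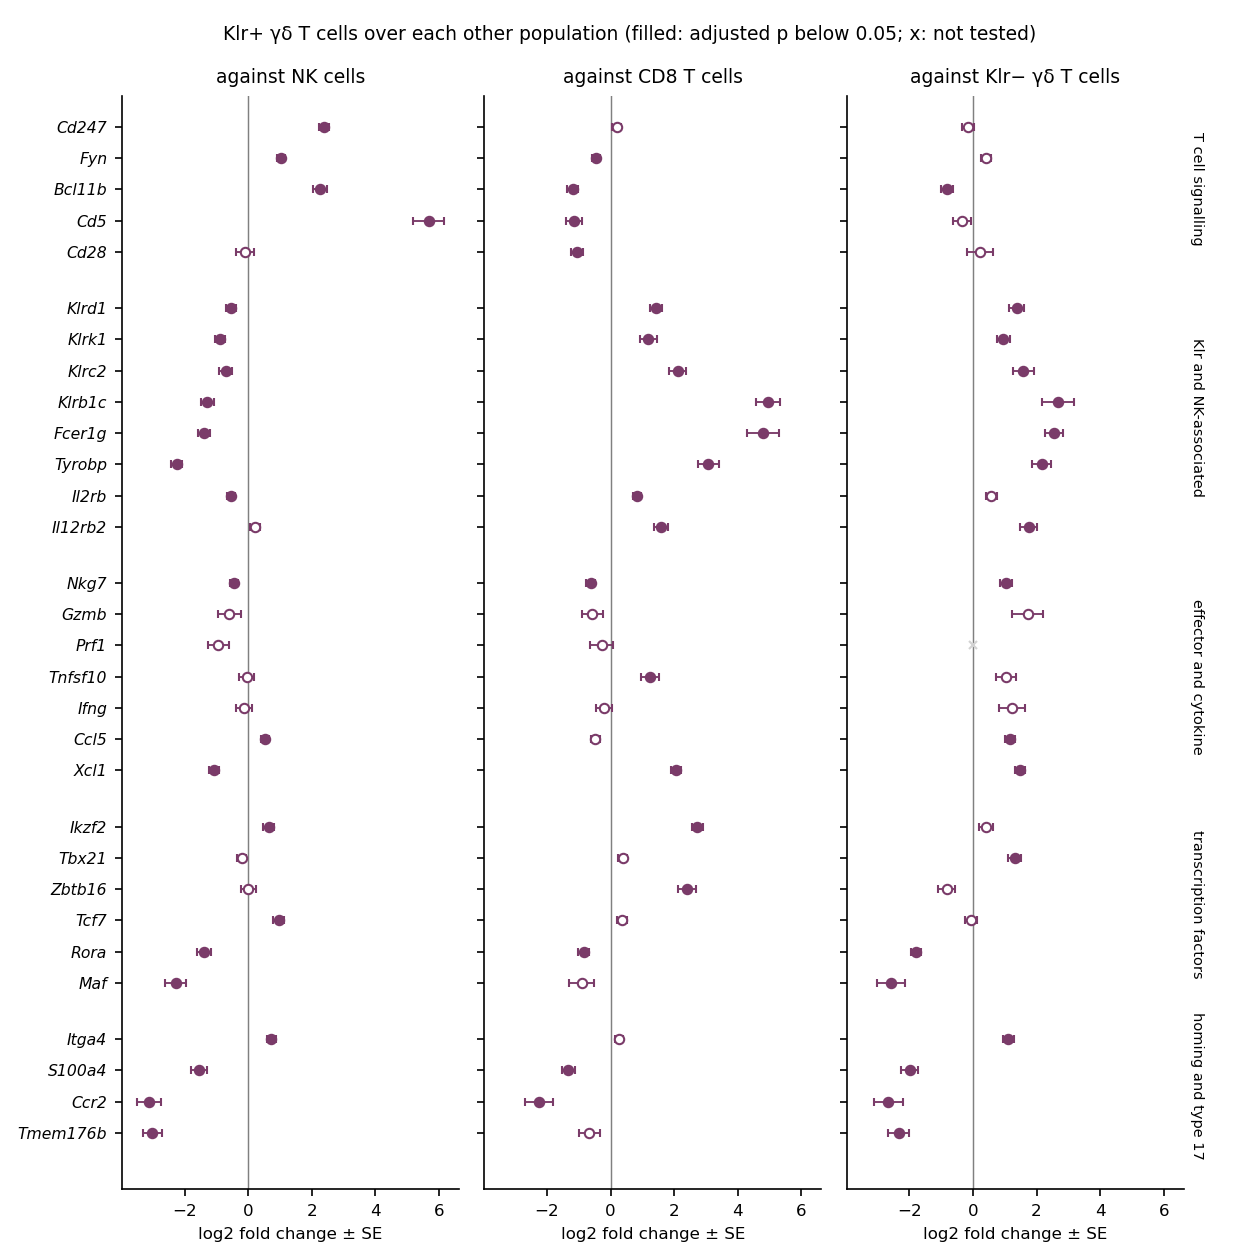
Log2 fold change (x axes, with SE) of named genes in Klr+ γδ T cells over NK cells, CD8 T cells and γδ T cells without the 3 Klr genes, from sums of 6 mice; filled circles have an adjusted p below 0.05, open circles do not, and x marks a gene not tested. The Klr and NK-associated genes other than Il12rb2 lie left of 0 against NK cells, and all of them lie right of 0 against the other 2 populations.

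Within the 131 cells, effector transcripts were uneven. Gzmb was detected in 31 cells (23.7%), against 33.1% of NK cells, 32.7% of CD8 T cells, 6.77% of γδ T cells without the Klr genes and 0.479% of B cells; at 2000 UMIs per cell the shares were 18.5%, 21.1%, 19.6%, 3.96% and 0.192%. Ifng was detected in 69.5%, against 66.7% of NK cells, 74.7% of CD8 T cells, 29.4% of γδ T cells without the Klr genes and 1.96% of B cells. Prf1 (perforin) was detected in 17.6%, against 30.2% of NK cells, 23.4% of CD8 T cells and 1.59% of B cells. Detection of interferon-γ was thus frequent and of the granzyme and perforin genes much less so.

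Other effector transcripts were counted in cells with and without Gzmb. Of 31 cells with a Gzmb UMI, 87.1% held Ifng, against 64.0% of the other 100. Gzma, which encodes granzyme A, was held by 35.5% against 2.00%, and Prf1 by 35.5% against 12.0%. Depth was not equalised in these pairs, they pool cells of 6 mice and no test was made.

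The share of Klr+ γδ T cells was about 2 times as high in knockout as in control livers, at the smallest p that this design can give. Of all kept cells they were 0.527%, 0.384% and 0.312% in the knockout mice, against 0.311%, 0.144% and 0.164% in the control mice. The means were 0.408% ± 0.109 in knockout mice and 0.207% ± 0.0911 in control mice (SD, n = 3 each; difference 0.201 percentage points, ratio 1.97; exact two-sided permutation test, p = 0.1). The groups did not overlap, but knockout mouse 3 and control mouse 1 were almost level. They overlapped (exact p = 0.2 each) with the 4 Scrublet doublets removed, all of them in knockout mouse 1, with a limit of 10% mitochondrial UMIs, and with Trac at 0, at differences of 0.187, 0.202 and 0.132 percentage points. Among γδ T cells of the 3 gates, they were 22.4%, 17.9% and 19.0% in the knockout mice, against 14.8%, 7.22% and 10.7% in the control mice (means 19.7% ± 2.34 and 10.9% ± 3.79, ratio 1.81, exact p = 0.1).

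The size and the separation of the groups depended on which cells were counted. Without the 11 cells that held transcripts of another cell type, 10 of them in knockout mice, the shares were 0.361% ± 0.0595 in knockout mice and 0.200% ± 0.0965 in control mice (SD, n = 3 each, ratio 1.81), the groups overlapped and the exact p was 0.2. Requiring at least 2 UMIs of each gate gave a ratio of 2.97 with groups that did not overlap (exact p = 0.1). Cells with a Klra1 or Klra7 UMI were 0.124% ± 0.0449 of cells in knockout mice and 0.109% ± 0.0267 in control mice (SD, n = 3 each, ratio 1.14, exact p = 0.6). Cells with Klre1 alone were 0.284% ± 0.0904 in knockout mice and 0.0981% ± 0.0778 in control mice (SD, n = 3 each, ratio 2.89, exact p = 0.2). The mean shares thus differed by 0.0151 percentage points for cells with Klra1 or Klra7 and by 0.186 for cells with Klre1 alone, and the difference between both subsets was not tested. Without knockout mouse 1 the difference in share was 0.142 percentage points (ratio 1.68, exact p = 0.2), and without control mouse 1 it was 0.253 (ratio 2.64, exact p = 0.1).

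The same shares were computed for other lymphocytes. γδ T cells without the Klr genes had a knockout to control ratio of 1.24 (exact p = 0.5), IL-17-type γδ T cells 0.817 (exact p = 0.5), CD8 T cells 0.891 (exact p = 1.0) and NK cells 0.812 (exact p = 0.2). Adjusted over these 5 populations, the p of Klr+ γδ T cells was 0.5. None of these differences was set against that of Klr+ γδ T cells in a test.

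**Figure D3:**
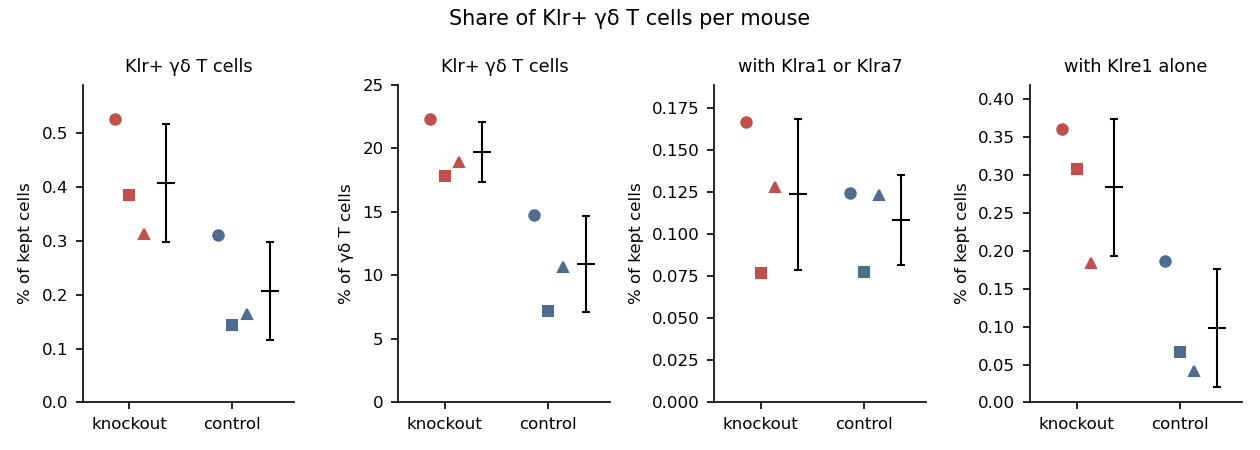
Klr+ γδ T cells as a percent of kept cells and of γδ T cells, and the subsets with Klra1 or Klra7 and with Klre1 alone as a percent of kept cells (y axes from 0); symbols are mice 1, 2 and 3 (circle, square, triangle), bars are mean ± SD of 3 knockout (red) and 3 control (blue) mice. The groups do not overlap in the 2 panels of all Klr+ γδ T cells and overlap in the panels of both subsets.

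Within Klr+ γδ T cells, no gene passed the test between knockout and control mice. Control mouse 3, with 8 cells, was left out of this fit, which needs 10 cells per library. By edgeR's quasi-likelihood test, 0 of 3205 genes had an adjusted p under 0.05 (0.0%), 273 had an unadjusted p under 0.05 (8.52%), and DESeq2 called 1. With all 6 libraries 0 of 2813 genes passed. Over the 6 libraries, levels of knockout and control mice did not overlap for 495 of the 3205 genes (15.4%).

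The genes of smallest p were named by rule and none passed. Cmss1, a nucleolar protein gene, stood at 784, 684 and 769 CPM in the knockout mice, against 229, 200 and 728 CPM in the control mice (log2 fold change 1.80, SE 0.29, adjusted p = 0.13, without control mouse 3). Control mouse 3 lay with the knockout mice. In NK cells Cmss1 stood at 784, 564 and 577 CPM in the knockout mice, against 188, 334 and 531 CPM in the control mice. Control mouse 3 was again the highest control, and genes were not tested by genotype within NK cells. Septin9, a cytoskeletal GTPase, stood at 115.01, 178 and 126 CPM in the knockout mice, against 27.8, 26.7 and 18.2 CPM in the control mice (log2 fold change 2.31, adjusted p = 0.54), and the control values rest on 4, 2 and 1 UMIs. Wwp1, a ubiquitin ligase, stood at 106, 72.3 and 151 CPM in the knockout mice, against 264, 347 and 291 CPM in the control mice (log2 fold change -1.42, adjusted p = 0.54). Hspa1b, an inducible heat shock chaperone, stood at 1442, 3735 and 1779 CPM in the knockout mice, against 5278, 5841 and 2710 CPM in the control mice (log2 fold change -1.27, adjusted p = 0.54), and its range overlapped. Lars2 and Capns1 among the higher and Ahcyl2, Icos and Rpl38 among the lower genes had log2 fold changes of 1.82, 2.15, -1.46, -1.71 and -1.11, and each had an adjusted p of 0.54.

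Effector and receptor genes of these cells gave no call by genotype. Gzmb stood at 139, 237 and 88.3 CPM in the knockout mice, against 20.9, 120 and 127 CPM in the control mice. Ifng stood at 363, 677 and 385 CPM in the knockout mice, against 890, 493 and 309 CPM in the control mice. Both overlapped, and so did Ikzf2, at 375, 1006 and 252 CPM in the knockout mice, against 466, 587 and 800 CPM in the control mice. Fcer1g stood at 313, 178 and 265 CPM in the knockout mice, against 396, 507 and 582 CPM in the control mice. All 3 knockout values lay below the control values, and the gene was not called. Every list gave 0 calls. Of 12 tested cytotoxic genes 7 were above 0 and the median log2 fold change was 0.09, and of 8 interferon-stimulated genes 4 were above 0 with a median of -0.06, against 0.01 over all genes. Of 40 dissociation and immediate early genes 32 were below 0, with a median of -0.31.

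**Figure D4:**
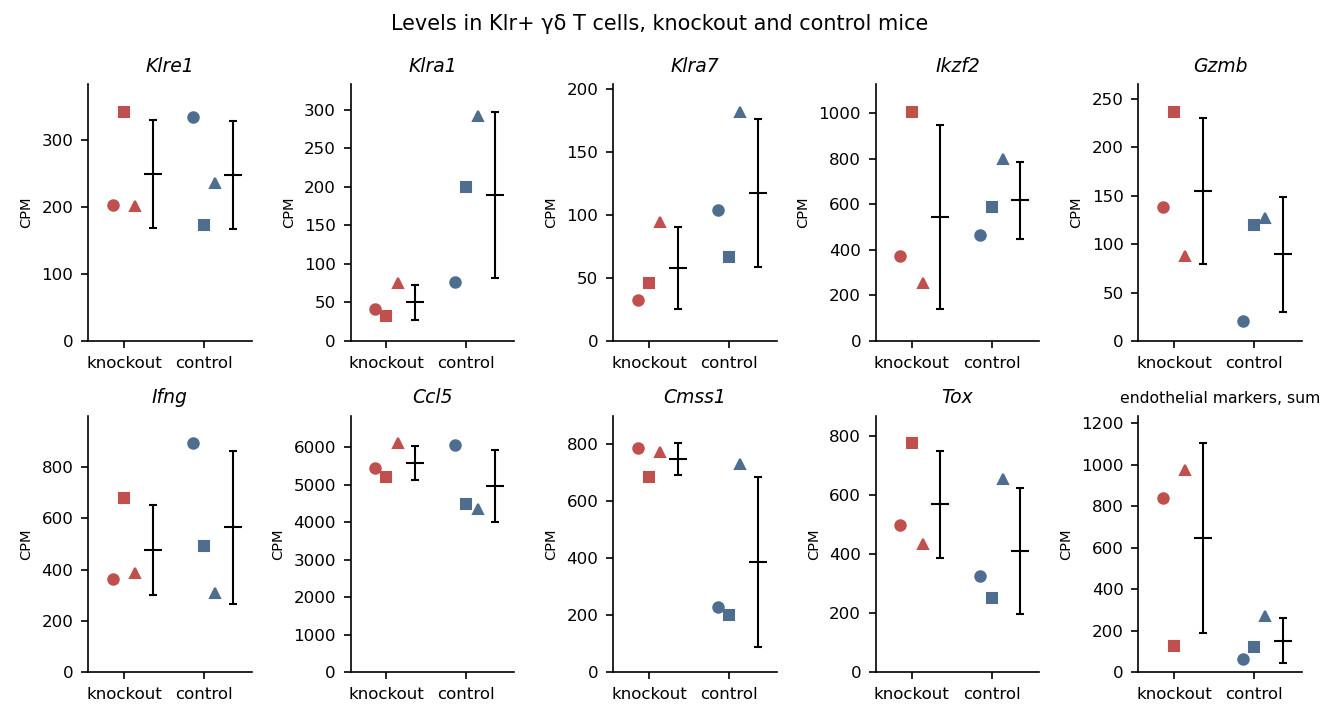
Levels in Klr+ γδ T cells of 3 knockout (red) and 3 control (blue) mice, in CPM of summed UMIs (y axes from 0), for 9 genes and the summed endothelial marker list; symbols are mice 1, 2 and 3 (circle, square, triangle) and bars are mean ± SD. Gzmb, Ifng and Ikzf2 overlap between genotypes, and the endothelial sum is high in knockout mice 1 and 3.

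Whether the genotype effect differed from that in NK or CD8 T cells was tested as an interaction over all 6 mice. Against NK cells 0 of 9359 genes passed by edgeR (0.0%), with 605 at an unadjusted p under 0.05 (6.46%). Leaving out knockout mouse 1, 2 or 3 gave calls for 0.391%, 1.15% and 0.515% of the genes tested. Against CD8 T cells 29 of 9046 genes passed (0.321%), 25 with a higher (0.276%) and 4 with a lower (0.0442%) knockout effect in Klr+ γδ T cells; 677 had an unadjusted p under 0.05 (7.48%), and the median over all genes was shifted by 0.19 on the log2 scale. Endothelial and B cell genes were among the 25: Ptprb, a phosphatase of vascular endothelium, had 97, 1 and 55 UMIs in Klr+ γδ T cells of knockout mice and 0, 0 and 0 in those of control mice. Without the cells that held transcripts of another cell type, 5 of 7952 genes passed, and 4 of these were among the 29. The share called was 0.490%, 0.605% and 0.628% without knockout mouse 1, 2 or 3 and 0.169% without control mouse 2.

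Tox, a nuclear factor of lymphocyte development and of exhausted T cells, was called with and without those cells. It stood at 498, 776 and 435 CPM in Klr+ γδ T cells of knockout mice, against 327, 253 and 655 CPM in those of control mice. In CD8 T cells it stood at 352, 622 and 278 CPM in knockout mice, against 1077, 439 and 572 CPM in control mice. The interaction was 1.38 on the log2 scale (SE 0.29, adjusted p = 0.0049; 1.87 without those cells), and it lost its call without control mouse 1 or without control mouse 2. The groups overlapped in both populations.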

How the data were processed

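Single-cell 3′ RNA libraries of dissociated liver from 3 knockout and 3 control mice, separate animals per the labels, were deposited by the authors as raw UMI counts per gene and barcode. Per the submitters' processing notes, Cell Ranger 7.1.0, Seurat 4.1.1 and mm10 were used; their settings are not given in the sources used here. The authors' deposited barcode and gene lists only name the columns and rows of the counts, and no cell annotation was used. 44656 barcodes were in the files and 42682 were kept.

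Counts were summed per mouse and gate. Levels are CPM of those sums. Genes were tested with edgeR 4.0.16 in R 4.3.3 (TMM, filterByExpr, robust quasi-likelihood fit, threshold 0.05 on Benjamini-Hochberg adjusted p), tested beforehand on simulated data, and shares with exact two-sided permutation tests over mice (scipy 1.17.1), which cannot go below p = 0.1 for 3 against 3 mice. DESeq2 1.42.0 was an alternative. A genotype fit of Klr+ γδ T cells used libraries with at least 10 cells, so control mouse 3 with 8 was left out. Doublets were scored with Scrublet (scanpy 1.11.5) at a common threshold, since the automatic one failed in control mice 2 and 3; 4 of the 131 cells were marked and kept, and removing them was an alternative. Thinning drew 2000 UMIs per cell and left out shallower cells, 1 of the 131.

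Named genes: without calls, up to 5 per direction of smallest p by genotype; between populations up to 10 per direction past the threshold with an absolute log2 fold change of at least 1 and mean log2 CPM of at least 5; and for each gene list the most abundant and the lowest in p. The text gives part of these, and a few named genes are not reported here. The cells, gene lists and contrasts were chosen with earlier results of these data known.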

Additional observations from a re-analysis of the deposited data

Results flagged for a closer look

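For 10 genes the knockout effect in Klr+ γδ T cells differed from that in CD8 T cells by the interaction test (edgeR, Benjamini-Hochberg adjusted over 9046 genes), among 29 that did.

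In 5 of them the knockout effect was higher in Klr+ γδ T cells, and these were Ptprb (adjusted p = 3.65e-08), Igkc (1.27e-07), Fabp4 (6.38e-06), Eng (0.000152) and Ifitm3 (0.000152). Ptprb, Fabp4 and Eng are genes of vascular endothelium and Igkc is an antibody light chain gene. Eng had 70, 1 and 37 UMIs in Klr+ γδ T cells of knockout mice and 0, 0 and 0 in those of control mice. Fabp4 stood at 212, 0 and 706 CPM in knockout mice, against 6.95, 0 and 18.2 CPM in control mice, and Igkc had 105, 94 and 6 UMIs in knockout mice and 7, 4 and 1 in control mice. Cells with 10 or more UMIs of the endothelial list were found in knockout mice 1 and 3 and control mouse 3, and cells with as many of the B cell and plasma cell list in knockout mice 1 and 2. Without the 11 cells that held 10 or more UMIs of any other type, and with such CD8 T cells left out, 5 genes passed and none of these was among them.

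In 4 genes the knockout effect was lower in Klr+ γδ T cells: Kcnq5, a potassium channel gene (adjusted p = 0.00593), Pag1, an adaptor that restrains T cell receptor signalling (0.0175), Npc1, a lysosomal cholesterol transporter (0.0216), and Wwp1 (0.0454). Kcnq5 stood at 342, 434 and 549 CPM in Klr+ γδ T cells of knockout mice, against 723, 733 and 746 CPM in those of control mice, and at 129, 159 and 160 CPM in CD8 T cells of knockout mice, against 82.6, 126 and 86.1 CPM in control mice. Pag1 stood at 675, 572 and 681 CPM in Klr+ γδ T cells of knockout mice, against 855, 1214 and 1237 CPM in those of control mice. Npc1 rested on 9, 2 and 1 UMIs in knockout mice and 10, 7 and 9 in control mice. Wwp1 stood at 106, 72.3 and 151 CPM in knockout mice, against 264, 347 and 291 CPM in control mice. Without cells that held transcripts of another cell type, the log2 interaction of Kcnq5 was -0.98 (adjusted p = 0.40), against -1.32 with them, that of Pag1 -0.65 (0.76), against -1.07, that of Wwp1 -1.25 (0.36), against -1.43, and that of Npc1 -3.21 (0.023), against -2.73. All 4 calls were lost with gate thresholds of 2 UMIs. The Kcnq5 call was lost without control mouse 1, the Pag1 call without knockout mouse 2 or control mouse 2, the Wwp1 call without knockout mouse 1 or 2 or control mouse 1 or 2, and the Npc1 call without knockout mouse 3 or any 1 control mouse.

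Tox (adjusted p = 0.00487) was singled out after its values were seen, because it was called with and without those cells. Its 1.38 log2 interaction ran from 0.85 to 1.87 over the mice left out in turn, with an adjusted p of 0.37 without control mouse 1 and 0.13 without control mouse 2.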

How the results depend on the processing

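The share of Klr+ γδ T cells stayed higher in knockout than in control mice under every alternative run, by 0.142 to 0.253 percentage points over the mice left out in turn and by 0.0151 (exact p = 0.6) when Klra1 or Klra7 was required. By genotype, 0 genes became 27 with no filter on low counts, 1 with DESeq2, 1 with Trac at 0, and 0 to 11 over the mice left out. Same-numbered mice were not paired by the labels: their deviations correlated at 0.007, 0.078 and 0.050, the replicate block gave 21 genes, and the paired difference in share was again 0.201 (exact p = 0.25, the smallest for 3 pairs). Against NK cells, 668 became 1070 with no filter, 414 when Klra1 or Klra7 was required and 197 against NK cells with an Eomes UMI (490 to 627 over the mice left out). Against CD8 T cells, 448 became 677 with no filter (306 to 428 over the mice left out). Against γδ T cells without the Klr genes, 137 became 384 with no filter (49 to 187). For the interaction with NK cells, 0.0% of tested genes became 0.011% with RLE size factors, 0.207% with no filter and 0.011% with gates of 2 UMIs (0.0% to 1.15% over the mice left out). For that with CD8 T cells, 0.321% became 0.190% with no filter, 0.023% with gates of 2 UMIs and 0.063% without cells holding other types' transcripts (0.169% to 0.628%). Leaving out cells with other types' transcripts, requiring or excluding Klra genes and genotype fits of all 6 libraries were chosen after the data were seen, and the causes of these changes were not tested. Of 480, 599 and 387 values of named genes against NK cells, CD8 T cells and γδ T cells without the Klr genes, 457, 587 and 376 kept direction and call. Named genes were chosen in part by smallest p in these data, so they do not stand for all calls. Of all 668, 448 and 137 calls, 340, 198 and 75 were kept with gates of 2 UMIs. When Klra1 or Klra7 was required, 302, 237 and 83 were kept. Without control mouse 1, 451, 284 and 48 were kept. Few cells per mouse, 8 at the lowest, limit low genes.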
